A study of Danio rerio with 12 samples.

Results

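The genes described here encode 3 groups of transcription factors of the circadian clock. They were chosen as a list of 10 zebrafish symbols: the Rev-erb receptors nr1d1, nr1d2a, nr1d2b and nr1d4b, the basic helix-loop-helix repressors bhlhe40 and bhlhe41, and the PAR bZIP factors tefa, tefb, dbpa and dbpb. Their probes were found through the RefSeq accession that the scanner files give for each probe, which named 12858 genes on an array of 43603 probes. Probes were found for 9 of the 10 genes, and nr1d4b is not analysed here. The 9 genes had 19 probes in all, of which 4 belong to tefa, 3 each to nr1d2a and nr1d2b, 2 each to nr1d1, bhlhe40 and bhlhe41, and 1 each to tefb, dbpa and dbpb. A probe was tested where the scanner software marked it as well above background on the 3 arrays of at least 1 group, and all 19 probes met this condition. The probe of dbpb met it only through the 72 hpf beclomethasone arrays, where it is highest.

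The circadian clock of animal cells is a loop in which the activators Clock and Bmal drive their own repressors, the Per and Cry proteins. Side loops are tied to it: in mammals, Rev-erb receptors hold Bmal1 transcription down from elements that Ror receptors activate, and Bhlhe40 and Bhlhe41 compete at the E-boxes that Clock and Bmal use. PAR bZIP factors such as Tef and Dbp activate genes through D-box elements, and in zebrafish the D-box also serves the direct response of cells to light, which resets clocks throughout the body. Glucocorticoids such as the fish's own cortisol act on genes through the glucocorticoid receptor. The part of the receptor in the results below was not tested.

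Transcripts of whole AB wild-type embryos were measured on 12 arrays of 1 colour, with 3 arrays per group. The groups were embryos of 72 hours post fertilisation (hpf) after 3 h in 25 µM beclomethasone, embryos of 72 hpf after 3 h in 0.1% DMSO, embryos of 24 hpf after 3 h in 25 µM beclomethasone, and embryos of 24 hpf after 3 h in 0.1% DMSO. Beclomethasone is a synthetic glucocorticoid, and DMSO is its solvent. The clock time of sampling and the light regime are not given in the sources used here, nor is it said whether the triplicates came from separate clutches, so that p-values measure only the spread between these samples.

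On 11 arrays between 31210 and 37401 spots were well above background, against 16764 on 24 hpf DMSO replicate 3. The lowest signal of that array was 42.8 scanner units, against 2.36 to 3.89 units on the others, so that dim genes have no measured level there, and the clock genes' results that use it are also given without it. The 12 arrays lie on 3 slides, of which the first holds all 24 hpf DMSO arrays with beclomethasone replicate 1, and the third all 72 hpf beclomethasone arrays with DMSO replicate 3. The second holds 24 hpf beclomethasone replicates 2 and 3 with 72 hpf DMSO replicates 1 and 2. No slide holds both stages of the same treatment. Directions below rest on the treatment labels of the scanner files. Each of the 12 columns of the authors' deposited log2 table matched the array of the same stage and number but of the other treatment (r across probes 0.988 to 0.997, against 0.658 to 0.827 for its own label), so that the table as labelled turns every treatment effect round. In the arrays labelled beclomethasone, 6 of 6 known glucocorticoid targets (fkbp5, klf9, tsc22d3, hsd11b2, sgk1 and ddit4) were higher at each stage, with limma adjusted p between 1.44e-06 and 0.0432 at 72 hpf and between 1.93e-07 and 0.00925 at 24 hpf.

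Signals are given as a percent of the array's 75th percentile over non-control spots, called the relative signal, and for the brightest probe of each gene unless another is named. Different probes are not compared in level. A gene was called where limma's adjusted p, over 25166 genes and probes, was below 0.05. In whole embryos, a change in the number of cells that express a gene and a change per cell cannot be told apart.

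Beclomethasone was followed at 72 hpf by higher signals of 5 of the 9 measured clock genes, nr1d1, nr1d2a, bhlhe41, tefa and tefb, while 4.8% of all genes and probes tested were called higher. Of the 8 genes other than dbpb, 0 were called lower in limma, against 5.44% of all tested. At 24 hpf nr1d2a and tefb were called higher (9.05% of all tested), and nr1d2b and bhlhe40 lower (10.1% of all tested). Both genes that were higher at 24 hpf were also higher at 72 hpf, which holds for 24.7% of all genes and probes called higher at 24 hpf. Since dbpb was tested only through the group where it is highest, it is left out of the next counts, as a higher value there was fixed by that choice. The median log2 change of the 8 other genes was 1.13 at 72 hpf, where that of all tested was 0.00, and 0.26 at 24 hpf, where that of all tested was -0.12. At 72 hpf the treated and DMSO arrays of 6 of the 8 did not overlap, all with the treated arrays higher (16.8% of all tested). At 24 hpf this held for 4 genes with the treated arrays higher (16.1% of all tested) and 2 with them lower (22.6%). Among the 4, nr1d2a, bhlhe41 and tefb were not above background on DMSO replicate 3, so that their lack of overlap with that array was not measured. Without 24 hpf DMSO replicate 3, 6 of the 8 were called higher at 72 hpf (7.63% of all tested in that fit), and 3 higher (11%) and 2 lower (14.1%) at 24 hpf. The 24 hpf median of the 8 was then 0.23.

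**Figure D1:**
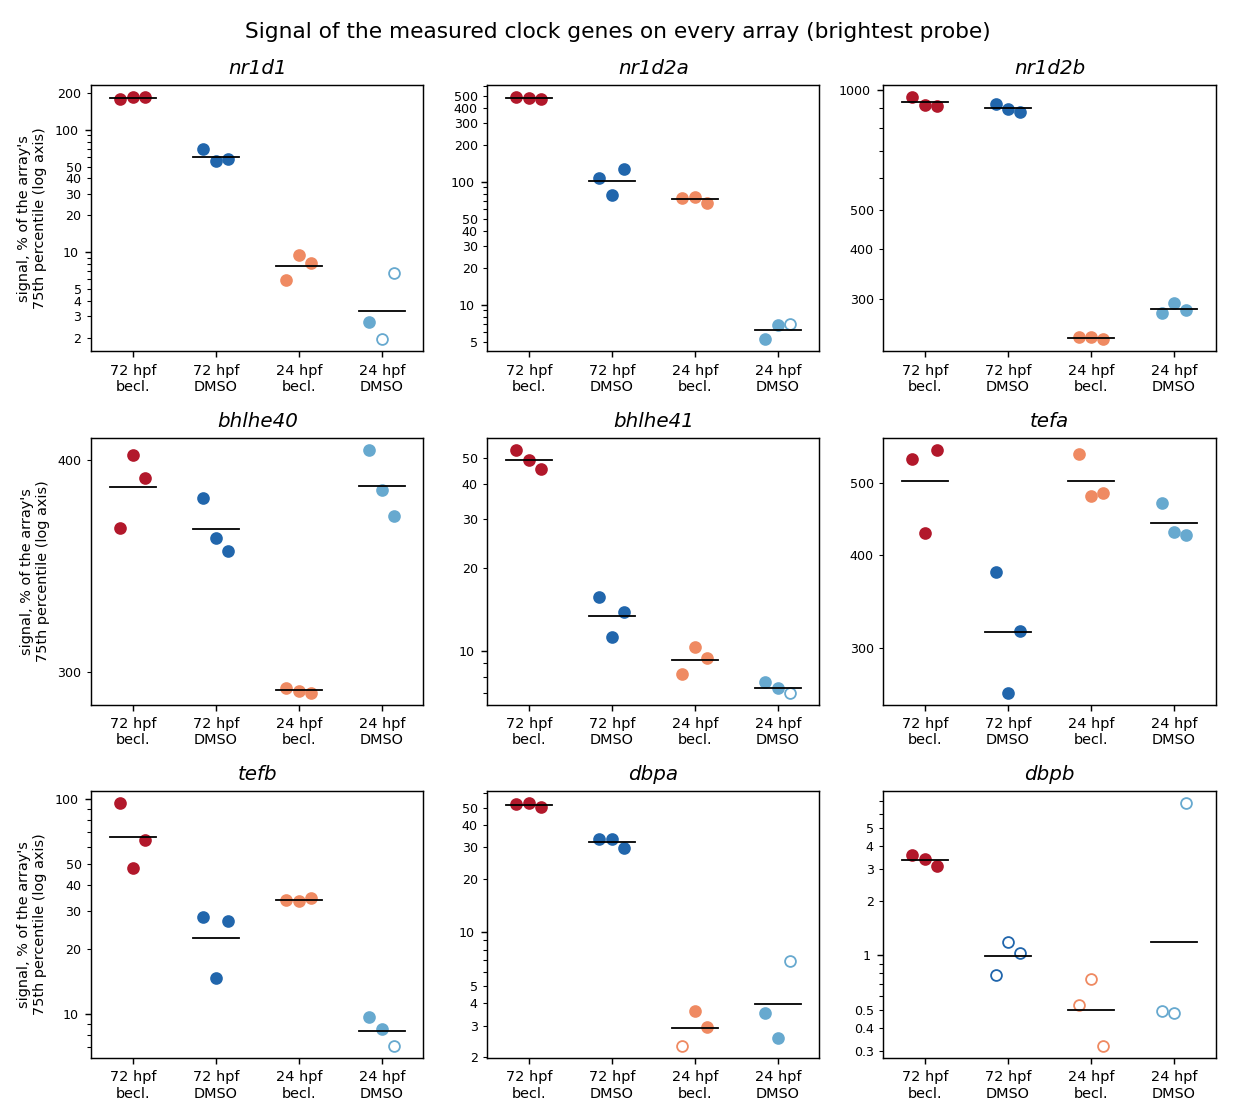
Relative signal (percent of the array's 75th percentile, log axis) of the brightest probe of each of the 9 measured clock genes on every array, with 1 point per array, filled where the spot was well above background and open where it was not. Bars are the geometric means of 3 arrays. The open point of 24 hpf DMSO replicate 3 lies near 7% in 6 panels, between 6.79% (nr1d1) and 7.11% (tefb).

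The Rev-erb gene with the largest response was nr1d2a (NCBI gene 402815), which encodes one of the fish's counterparts of mammalian Rev-erb beta, a heme-binding receptor that represses transcription. Its relative signal was 488%, 479% and 472% on the 72 hpf beclomethasone arrays, against 108%, 78.4% and 126% on the 72 hpf DMSO arrays. At 24 hpf it was 73.1%, 75.7% and 67.4% with beclomethasone, against 5.22%, 6.77% and 6.94% with DMSO, the last of them not above background. All 3 treated arrays lay above all 3 DMSO arrays at both stages. On this probe the group means ran in the order 72 hpf beclomethasone, 72 hpf DMSO, 24 hpf beclomethasone and 24 hpf DMSO. Neighbours did not overlap, though 72 hpf DMSO (lowest 78.4%) and 24 hpf beclomethasone (highest 75.7%) were close. The log2 fold change was 2.23 ± 0.17 (SE; adjusted p = 3.63e-05) at 72 hpf and 3.52 ± 0.17 (SE; adjusted p = 4.68e-06) at 24 hpf in limma, and 3.60 at 24 hpf without DMSO replicate 3. At 24 hpf it ranked 13th from the top of all genes and probes tested.

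The other probes of nr1d2a were dimmer and moved the same way with treatment. Unlike the brightest probe, both had a higher mean in 24 hpf beclomethasone than in 72 hpf DMSO (15.3% against 11.5%, and 5.63% against 3.97%). The second had 71.9%, 55.0% and 55.4% at 72 hpf with beclomethasone, against 14.7%, 7.79% and 12.1% with DMSO. On the 24 hpf arrays it had 14.8%, 16.5% and 14.5% with beclomethasone and was not above background on any DMSO array. It was called at both stages, with a log2 fold change of 2.43 ± 0.56 at 72 hpf (SE; limma adjusted p = 0.0250) and a level at least 2.68-fold higher at 24 hpf (limma adjusted p = 0.0105). Such a bound sets the treated mean against the lowest signal well above background on each DMSO array, or the gene's own signal if higher. The third probe had a value of 2.33 ± 0.85 at 72 hpf on the log2 scale (SE), which was not called (limma adjusted p = 0.144). At 24 hpf it was not above background on any DMSO array, was not called (0.106) and allows no bound above 1-fold.

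The gene nr1d1 (NCBI gene 494487), the counterpart of mammalian Rev-erb alpha, had 178%, 183% and 184% on the 72 hpf beclomethasone arrays, against 68.9%, 55.2% and 57.2% on the 72 hpf DMSO arrays. The 2 groups lay far apart, with little spread within either. The log2 fold change was 1.60 ± 0.38 (SE; limma adjusted p = 0.0281). The call was lost in several other fits. With replicate number as a block, which pairs the 72 hpf arrays, the adjusted p was 0.0657, and without any 1 of the 6 arrays of that stage it was between 0.0652 and 0.0924. Without 24 hpf DMSO replicate 3, which no 72 hpf value uses, it was 4.37e-04. At 24 hpf nr1d1 was near the detection limit, with 5.94%, 9.57% and 8.18% with beclomethasone, against 2.71%, 1.95% and 6.79% with DMSO, where 1 of 3 spots was above background. Those groups overlapped through DMSO replicate 3 alone. The log2 value of 1.23 ± 0.38 (SE) was not called (limma adjusted p = 0.0516), while without that replicate it was 1.75 with an adjusted p of 7.51e-04. The second nr1d1 probe averaged 12.3% ± 0.24 with beclomethasone and 5.51% ± 0.89 with DMSO at 72 hpf (SD, n = 3 each), and its log2 value of 1.17 ± 0.87 (SE) was not called (limma adjusted p = 0.544).

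The third Rev-erb gene, nr1d2b (NCBI gene 30271), a paralogue of nr1d2a, behaved otherwise. It had 957%, 917% and 911% on the 72 hpf beclomethasone arrays, against 919%, 896% and 878% on the DMSO arrays of that stage. These groups overlapped and differed by 0.05 ± 0.05 on the log2 scale (SE; 95% interval -0.07 to 0.17; limma adjusted p = 0.730). In the younger embryos it had 241%, 241% and 237% with beclomethasone, against 276%, 293% and 281% with DMSO. All treated arrays lay below all DMSO arrays, and nr1d2b fell by 0.24 ± 0.05 on the log2 scale (SE; limma adjusted p = 0.0147), where the median of all genes and probes was -0.12. Without DMSO replicate 3 it was -0.24 as well (adjusted p = 0.0237). The call was lost without beclomethasone replicate 2 (adjusted p = 0.0534) and when only the 6 arrays of that stage were fitted (0.0885). Its other probes, both dim, gave 0.13 ± 0.17 and -1.41 ± 0.56 at 24 hpf, neither called (limma adjusted p = 0.596 and 0.100).

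**Figure D2:**
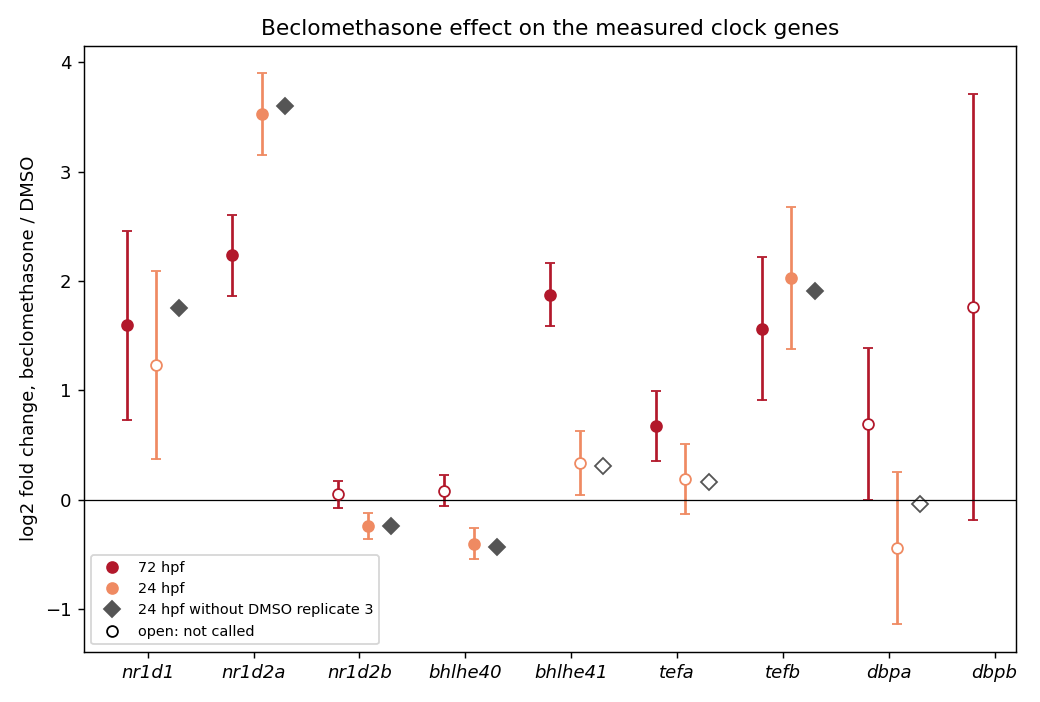
Log2 fold change of beclomethasone over DMSO for the brightest probe of each gene at 72 hpf (dark) and 24 hpf (light), with 95% intervals from the limma fit to 12 arrays. Grey diamonds give the 24 hpf value without DMSO replicate 3. Filled symbols were called. No 24 hpf point is drawn for dbpb, which was not above background in either group. The 24 hpf point of nr1d1 is open and its diamond filled, and nr1d2b and bhlhe40 lie below 0 at 24 hpf.

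Of the Bhlhe repressors, bhlhe41 (NCBI gene 563771; Dec2 in mammals) was called at 72 hpf. It had 53.2%, 49.2% and 45.4% on the 72 hpf beclomethasone arrays, against 15.6%, 11.2% and 13.8% on the 72 hpf DMSO arrays. The lowest treated array was well above the highest DMSO array, and the log2 fold change was 1.88 ± 0.13 (SE; limma adjusted p = 2.24e-05). At 24 hpf it had 8.24%, 10.3% and 9.41% with beclomethasone, against 7.70%, 7.31% and 7.06% with DMSO, the last at the floor of its array. Those groups did not overlap but were close, and the value of 0.33 ± 0.13 (SE; 95% interval 0.04 to 0.62) was not called (limma adjusted p = 0.101), nor was the 0.31 without DMSO replicate 3 (0.159). The second probe gave 1.85 ± 0.19 at 72 hpf, called (limma adjusted p = 2.51e-04), and -0.01 ± 0.19 at 24 hpf, not called.

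The paralogue bhlhe40 (NCBI gene 324413; Dec1 in mammals) was called only at 24 hpf and in the other direction. It had 294%, 293% and 292% on the 24 hpf beclomethasone arrays, against 406%, 384% and 371% on the 24 hpf DMSO arrays. The treated arrays were nearly equal and all below the DMSO arrays. The log2 value fell by 0.40 ± 0.06 (SE; limma adjusted p = 0.00326), or by 0.43 without DMSO replicate 3 (0.00379). The second bhlhe40 probe, which is dim, had 11.8%, 13.8% and 11.7% with beclomethasone at 24 hpf, against 9.27%, 13.1% and 8.87% with DMSO, and its value of 0.27 ± 0.16 has the opposite sign without being called (limma adjusted p = 0.232). At 72 hpf the brightest probe had 365%, 403% and 391% with beclomethasone, against 380%, 360% and 354% with DMSO. These groups overlapped, with a log2 difference of 0.08 ± 0.06 (SE; 95% interval -0.06 to 0.22; limma adjusted p = 0.549).

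Among the PAR bZIP activators, tefb (NCBI gene 553686), 1 of the 2 thyrotroph embryonic factor genes of zebrafish, was called higher at both stages. It had 95.4%, 47.8% and 64.4% on the 72 hpf beclomethasone arrays, against 28.3%, 14.8% and 27.1% on the 72 hpf DMSO arrays. Both groups spread over about 2-fold, and they did not overlap. On the 24 hpf arrays it had 34.0%, 33.7% and 34.4% with beclomethasone, against 9.64%, 8.49% and 7.11% with DMSO, the last at the floor. The log2 fold change was 1.57 ± 0.29 (SE; limma adjusted p = 0.00779) at 72 hpf and 2.03 ± 0.29 (SE; limma adjusted p = 0.00216) at 24 hpf, or 1.91 without DMSO replicate 3.

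The 72 hpf spread of tefb followed the replicate number. Replicate 2 was the lowest in both treatments for tefb and for the brightest probe of tefa. It was the lowest on none of the other tefa probes, and on the dimmest it was the highest (141% with beclomethasone and 89.9% with DMSO). The ratios of treated to DMSO arrays of the same number were 3.37, 3.24 and 2.38 for tefb. For nr1d2a they were 4.54, 6.11 and 3.75, for bhlhe41 3.41, 4.40 and 3.29, and for nr1d1 2.59, 3.32 and 3.22. Over all probes, deviations of same-numbered 72 hpf arrays from their group means correlated at 0.498 to 0.533, against -0.394 to -0.125 for arrays of different number. Deviations within a group cancel in sum, so the negative values follow from the positive ones and are no separate sign of pairing.

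**Figure D3:**
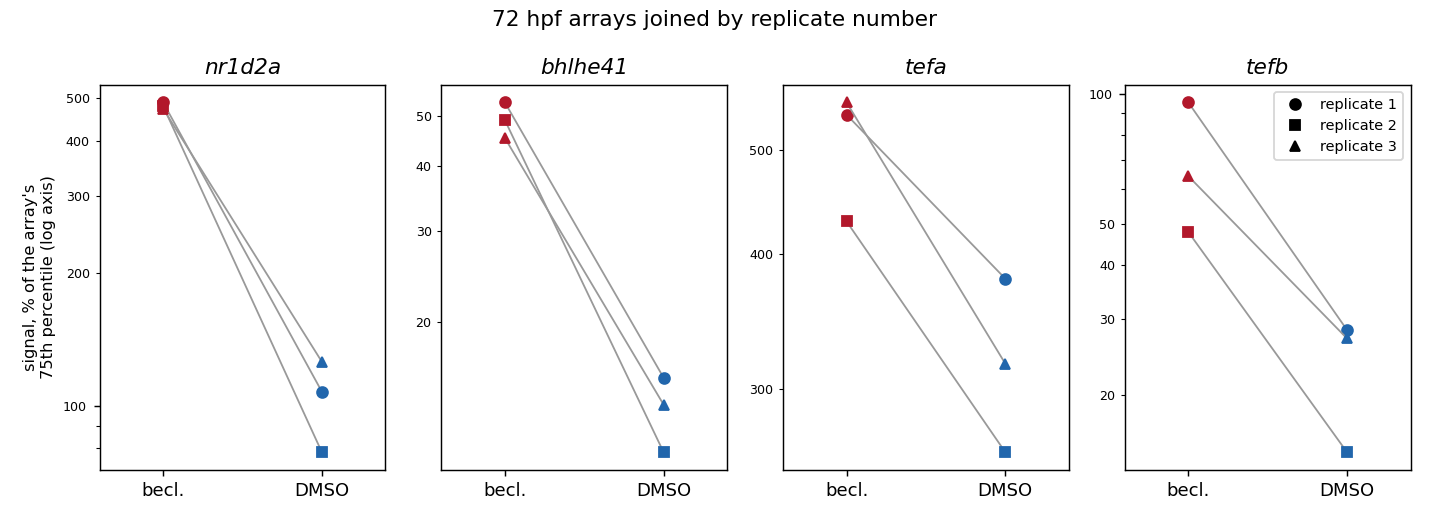
Relative signal (percent of the array's 75th percentile, log axis) of nr1d2a, bhlhe41, tefa and tefb on the 6 arrays of 72 hpf, beclomethasone on the left and DMSO on the right, with lines joining arrays of the same replicate number. Every line runs lower on the DMSO side. On the brightest probes, which are drawn, replicate 2 (squares) is the lowest on both sides for tefa and tefb.

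The paralogue tefa (NCBI gene 30674), the factor tied in zebrafish to light-driven per2 transcription, had 539%, 429% and 553% on the 72 hpf beclomethasone arrays, against 379%, 262% and 316% on the 72 hpf DMSO arrays. The groups did not overlap, and tefa rose by 0.67 ± 0.14 (SE; limma adjusted p = 0.0158). The call was lost without beclomethasone replicate 1 (adjusted p = 0.0625) or 3 (0.0691), and when only the 6 arrays of that stage were fitted (0.0526). All 4 tefa probes were called at 72 hpf, with log2 values between 0.53 and 0.68 in a fit with every probe as a row (4.53% of all probes called higher). At 24 hpf the brightest probe had 547%, 480% and 485% with beclomethasone, against 469%, 430% and 426% with DMSO. The treated arrays were all higher, by 0.19 ± 0.14 (SE; 95% interval -0.13 to 0.51), which was not called (limma adjusted p = 0.369), nor was the 0.16 without DMSO replicate 3 (0.494). Of its other probes at 24 hpf, the dimmest was called (0.57 ± 0.15, limma adjusted p = 0.0278), and its DMSO replicate 3 was not above background.

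The Dbp genes encode activators of D-box genes that cycle strongly in mammalian liver. The probe of dbpa (NCBI gene 565056) had 52.5%, 52.8% and 50.6% on the 72 hpf beclomethasone arrays, against 33.2%, 33.3% and 29.8% on the 72 hpf DMSO arrays. The groups were tight and well apart, with a log2 value of 0.70 ± 0.31 (SE) that was not called (limma adjusted p = 0.229). Without 24 hpf DMSO replicate 3, the fold was the same and the adjusted p 0.0222. The 24 hpf arrays had 2.31%, 3.64% and 2.94% with beclomethasone, against 3.53%, 2.54% and 6.92% with DMSO. The groups overlapped, and the log2 value was -0.44 ± 0.31 (SE; limma adjusted p = 0.332), or -0.04 without DMSO replicate 3.

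The probe of dbpb (NCBI gene 569109) was above background on the 3 beclomethasone arrays of 72 hpf and on 0 of the 9 others. It had 3.58%, 3.39% and 3.10% there, against 0.78%, 1.19% and 1.03% on the 72 hpf DMSO arrays. That is at least 2.54-fold higher (limma adjusted p = 0.284), a direction that the condition for testing fixed. At 24 hpf neither group was above background, so that no fold is given.

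**Figure D4:**
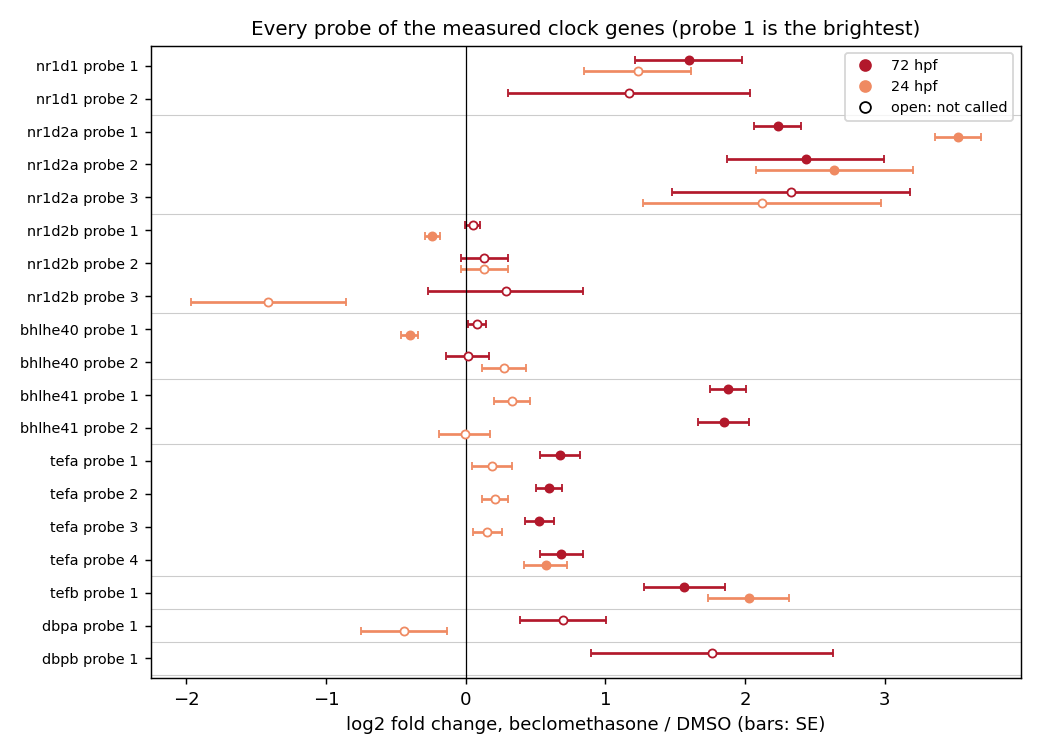
Log2 fold change of beclomethasone over DMSO for each of the 19 probes at 72 hpf (dark) and 24 hpf (light), with bars of 1 SE from limma and filled symbols for called probes. Probes not above background in either group are not drawn. The 4 tefa probes lie together at 72 hpf, and the 2 bhlhe41 probes lie at 1.88 and 1.85 at 72 hpf and at 0.33 and -0.01 at 24 hpf. The 24 hpf points of nr1d2a probes 2 and 3 and the 72 hpf point of dbpb set measured signals against spots not above background.

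Within slides, 1 array of a group meets 3 of the other. The groups of the called genes did not overlap, so their sign within a slide was fixed in advance, and only the sizes are given. On the third slide the 72 hpf differences in log2 were 1.93 for nr1d2a, 1.83 for bhlhe41, 1.67 for nr1d1, 1.30 for tefb and 0.67 for tefa. On the first slide the 24 hpf differences were 3.55 for nr1d2a, 2.03 for tefb, -0.23 for nr1d2b and -0.40 for bhlhe40. With slide as a block, nr1d2a and bhlhe41 stayed called at 72 hpf (limma adjusted p = 0.00510 and 0.00334), and nr1d2a at 24 hpf (6.86e-04). The other calls did not (adjusted p between 0.055 and 0.245).

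The treatment effect differed between the stages for 3 of the 9 genes. Among all genes and probes, 2.56% had an effect called higher at 72 hpf than at 24 hpf, and 3.74% lower. The effect on bhlhe41 was 1.54 ± 0.18 higher at 72 hpf on the log2 scale (SE; limma adjusted p = 0.00248), and its second probe gave 1.85 ± 0.26 (adjusted p = 0.00572). The effect on bhlhe40 was 0.48 ± 0.09 higher at 72 hpf (SE; limma adjusted p = 0.0149), while its second probe gave -0.26 ± 0.22, not called. The effect on nr1d2a was lower at 72 hpf, by -1.29 ± 0.24 (SE; limma adjusted p = 0.0145), but its other probes, not above background in 24 hpf DMSO, gave -0.21 ± 0.79 and 0.21 ± 1.20, and the value was 0.028 after normexp background correction. That correction adds 50 units to every spot, which shrinks the folds of dim spots. The bhlhe41 value was 0.72 after quantile normalization and then not called (adjusted p = 0.674), and it was not called with slide as a block (0.0675). The values without 24 hpf DMSO replicate 3 were 1.57 for bhlhe41, 0.51 for bhlhe40 and -1.36 for nr1d2a, all called (adjusted p = 0.00241, 0.0121 and 0.0109). With replicate number as a block, the adjusted p was 0.0268 for bhlhe41, 0.0679 for bhlhe40 and 0.0553 for nr1d2a. For nr1d1 (0.36 ± 0.54), tefa (0.48 ± 0.20), tefb (-0.46 ± 0.41) and the remaining genes the difference was not called (limma adjusted p of at least 0.0554). Without 24 hpf DMSO replicate 2 that of dbpa was called (1.46, adjusted p = 0.0456), while without replicate 3 it was not (0.74, 0.0844). Without replicate 3 the values were -0.16 for nr1d1, 0.51 for tefa and -0.35 for tefb, not called either.

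Most of these genes had a higher signal at 72 hpf than at 24 hpf, whether the embryos were treated or not. Since no slide holds both stages of a treatment, stage and slide cannot be told apart directly in these comparisons. The fit with slide as a block reaches them only through arrays of the other treatment. Of the 8 genes other than dbpb, 7 were called higher at 72 hpf in beclomethasone (33.8% of all genes and probes) and 6 in DMSO (29.2%), with 1 lower (36.6%). Of the Rev-erb genes, nr1d1 differed by 4.55 ± 0.38 in beclomethasone and 4.19 ± 0.38 in DMSO on the log2 scale (SE; limma adjusted p = 3.61e-06 and 6.31e-06). The DMSO value, set against a 24 hpf level above background on 1 of 3 arrays, was 2.54 after normexp and 3.65 with slide as a block. For nr1d2a the values were 2.74 ± 0.17 and 4.03 ± 0.17 (limma adjusted p = 3.58e-07 and 2.96e-08), and for nr1d2b 1.95 ± 0.05 and 1.66 ± 0.05 (limma adjusted p = 2.89e-09 and 7.12e-09), each in beclomethasone and DMSO. On the brightest probe, the lowest 72 hpf array of each Rev-erb gene exceeded its highest 24 hpf array, over both treatments. This did not hold for the dimmer probes of nr1d1 and nr1d2a or for the dimmest of nr1d2b. For nr1d1 and nr1d2b the exception was 24 hpf DMSO replicate 3 alone, not above background there (6.99% and 7.09%). The lowest 72 hpf arrays of these probes had 4.57% and 4.95%. For nr1d2a, 24 hpf beclomethasone arrays above background also exceeded 72 hpf DMSO arrays.

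The bhlhe41 signal was 2.41 ± 0.13 higher at 72 hpf in beclomethasone and 0.87 ± 0.13 higher in DMSO (SE; limma adjusted p = 1.51e-07 and 2.01e-04). The DMSO value was not called after normexp (0.18, adjusted p = 0.0958), after quantile normalization (1.48, 0.0766) or with slide as a block (0.59, 0.0874), and the second probe gave 0.43 in DMSO, not called (0.0640). For bhlhe40 the value was 0.40 ± 0.06 in beclomethasone (limma adjusted p = 3.14e-04), or 0.11 after median scaling and then not called, and -0.09 ± 0.06 in DMSO, not called (0.258). The sign of the DMSO value of bhlhe40 changed with the scaling, since it was 0.10 after quantile normalization and -0.41 after median scaling, which called it lower. Of the PAR bZIP genes, dbpa differed by 4.16 ± 0.31 in beclomethasone and 3.02 ± 0.31 in DMSO (limma adjusted p = 1.46e-06 and 1.40e-05), and tefb by 0.97 ± 0.29 and 1.43 ± 0.29 (limma adjusted p = 0.0139 and 0.00158). The 24 hpf level of dbpa was above background on 2 of 3 arrays in each treatment. Its values were 2.44 and 1.67 after normexp, and 4.15 and 2.57 with slide as a block. In DMSO tefa was lower at 72 hpf, by -0.48 ± 0.14 (limma adjusted p = 0.0134), and in beclomethasone the stages differed by 0.00 ± 0.14, with overlapping groups. Its probes disagreed: the other 3 gave -0.15, -0.13 and 0.80 in DMSO. The tefb call in beclomethasone was lost without 72 hpf beclomethasone replicate 1 (adjusted p = 0.0529), after median scaling (0.0531) and after quantile normalization (0.85, 0.326). The tefa call in DMSO was lost after quantile normalization as well (-0.30, limma adjusted p = 0.0826). With slide as a block tefb was called in neither treatment (0.56 in beclomethasone and 1.29 in DMSO), nor was tefa in DMSO (-0.30). The dbpb signal in beclomethasone was at least 1.80-fold higher at 72 hpf (limma adjusted p = 0.0183), again a direction that the condition for testing fixed. The DMSO stage values without 24 hpf DMSO replicate 3 were 4.71 for nr1d1, 4.10 for nr1d2a, 1.66 for nr1d2b, 0.84 for bhlhe41, -0.12 for bhlhe40, 3.42 for dbpa, 1.31 for tefb and -0.51 for tefa. All of these but bhlhe40 were called, as they were with that array.

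**Figure D5:**
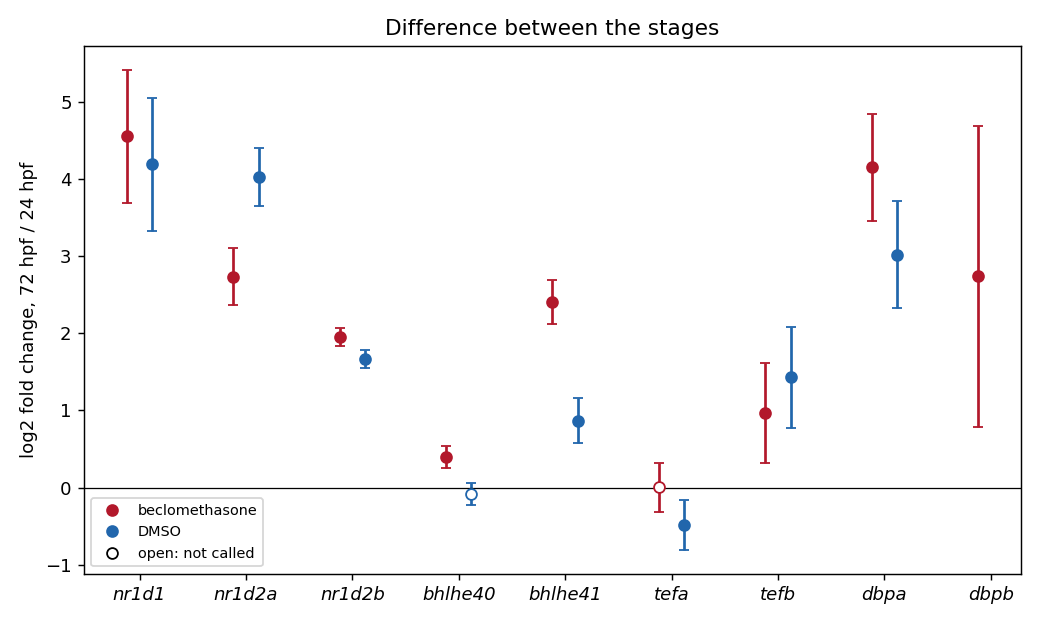
Log2 fold change of 72 hpf over 24 hpf for the brightest probe of each gene in beclomethasone (red) and in DMSO (blue), with 95% intervals from limma and filled symbols for called genes. No DMSO point is drawn for dbpb, and its beclomethasone point sets measured 72 hpf signals against spots not above background. The red point of bhlhe41 lies above the blue one and that of nr1d2a below it, while tefa lies at 0 in beclomethasone and below it in DMSO.

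Across the 12 arrays, a description in which stage accounts for much of the shared variation, nr1d1 and dbpa correlated at r = 0.96, nr1d2b and dbpa at 0.98, and nr1d2a and tefb at 0.93. The bhlhe40 and tefa signals had no correlation above 0.54 with another of the 9 genes. The named genes most like nr1d2a were ip6k2a (r = 0.997), sgk3 (0.988) and g6pc1a.2 (0.984). Those most like bhlhe41 were usp2a (0.984), ssh2b (0.980) and sgk1 (0.977), the last a known glucocorticoid target. Those most like tefb were rgcc (0.969), nfkbiaa (0.967) and eif4ebp3 (0.965), and those most like tefa papss2b (0.962), fam107b (0.945) and slc25a25a (0.924). The nearest gene to nr1d1 was slc5a8l (0.997), to bhlhe40 edem3 (0.952), to dbpa rab39bb (0.995) and to dbpb hrh3 (0.978). For nr1d2b it was crygm2d18 (0.999), a lens crystallin gene, which follows the stages. The r of dbpb was taken largely over spots not above background. Among these was its highest signal, 6.83% on 24 hpf DMSO replicate 3. The highest dbpb signal above background was 3.58%, on 72 hpf beclomethasone replicate 1. The r of dbpb and hrh3 therefore does not show that the 2 genes share a pattern of expression.

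Of 26 other tested genes of the clock loop, out of 36 listed, 6 were called higher and 1 lower at 72 hpf (4.8% and 5.44% of all genes and probes), and 8 higher and 2 lower at 24 hpf (9.05% and 10.1%). Their median log2 change was 0.28 at 72 hpf and 0.07 at 24 hpf. Without 24 hpf DMSO replicate 3, 10 were called higher at 72 hpf (7.63% of all) and 9 at 24 hpf (11%). The largest at 72 hpf were per2, which light induces in zebrafish through the D-box (1.23 ± 0.21, SE; limma adjusted p = 0.00506), cry4, a cryptochrome (0.88 ± 0.13; 0.00250), and cry1b, a repressing cryptochrome (0.80 ± 0.09; 4.43e-04). The 1 gene called lower there was bmal1a, whose mammalian counterpart Rev-erb receptors repress (-0.48 ± 0.06, SE; limma adjusted p = 6.54e-04). At 24 hpf the largest were cry4 (2.04 ± 0.13; limma adjusted p = 2.91e-05), cry1a (1.07 ± 0.09; 1.37e-04) and per2 (0.84 ± 0.21; 0.0223). The 24 hpf per2 call was lost without beclomethasone replicate 1 (adjusted p = 0.0649) or 2 (0.0877). Those called lower were fbxl3b, a relative of the ubiquitin ligase subunit that marks cryptochromes (-0.47 ± 0.09; limma adjusted p = 0.00907), and csnk1da, a casein kinase 1 gene (-0.41 ± 0.09; 0.0173, or 0.0746 without beclomethasone replicate 2). At 24 hpf bmal1a had -0.08 ± 0.06 and was not called (limma adjusted p = 0.322). After quantile normalization the per2 call was lost at both stages (limma adjusted p = 0.158 at 72 hpf and 0.0777 at 24 hpf). With slide as a block per2 was called at neither stage (1.07 at 72 hpf and 0.86 at 24 hpf). That block also took the calls of cry4 at 72 hpf (0.85) and of fbxl3b (-0.42) and csnk1da (-0.32) at 24 hpf. It left those of cry1b and bmal1a at 72 hpf and of cry4 and cry1a at 24 hpf.

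Of the 4 tested Ror genes, whose products act on the same elements as Rev-erb receptors in mammals, roraa, rorab and rorb were called higher at 72 hpf in both treatments. Among all genes and probes, 33.8% in beclomethasone and 29.2% in DMSO were called higher. The roraa value was 3.38 ± 0.14 in beclomethasone and 3.15 ± 0.14 in DMSO (SE; limma adjusted p = 2.75e-08 and 4.46e-08), and that of rorab 2.15 ± 0.06 and 2.26 ± 0.06 (4.14e-09 and 3.82e-09). For rorb the values were 1.04 ± 0.18 and 0.94 ± 0.18 (6.76e-04 and 0.00127). With slide as a block the rorb values were 0.53 and 0.34, neither called. After quantile normalization rorb was not called in beclomethasone (0.74, limma adjusted p = 0.0772). The fourth, rorca, was above background at 72 hpf and on 0 of the 6 arrays of 24 hpf. It was called in beclomethasone alone (at least 2.25-fold higher, limma adjusted p = 0.00206), a direction that the condition for testing fixed. That call was lost with slide as a block. Of the 5 tested genes of the Rev-erb corepressor complex, 4 in beclomethasone and 5 in DMSO were called lower at 72 hpf, against 33.7% and 36.6% of all genes and probes. With treatment, ncor1, the scaffold of that complex, and tbl1x, a subunit, were called lower at 24 hpf (-0.31 ± 0.08 and -0.63 ± 0.11, SE; limma adjusted p = 0.0211 and 0.00452, against 10.1% of all called lower). The ncor1 call was lost in 3 of 12 fits that left out 1 array, and after quantile normalization (-0.26, limma adjusted p = 0.054). Both calls were lost with slide as a block (-0.39 for ncor1 and -0.59 for tbl1x). At 72 hpf 0 of the 5 were called in limma, and 0 had an unadjusted p below 0.05.

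Of the 3 tested Nfil3 genes, whose mammalian relative represses at the D-box, nfil3-6 was higher and nfil3 lower at 72 hpf (1.86 ± 0.47 and -0.33 ± 0.08, SE; limma adjusted p = 0.0337 and 0.0265), and both calls were lost with replicate number as a block (0.0727 and 0.0527). Leaving out 1 array at a time took the nfil3-6 call in 9 of 12 fits and the nfil3 call in 4 of 12. At 24 hpf 0 of the 3 were called in limma, and 0 had an unadjusted p below 0.05. Of the 7 tested genes that light drives through D-boxes in zebrafish, ptgdsb.1, a prostaglandin D synthase gene, and ddb2, a DNA damage sensor, were higher at 24 hpf (0.91 ± 0.16 and 0.62 ± 0.08, SE; limma adjusted p = 0.00485 and 0.00125). Among all genes and probes, 9.05% were called higher and 10.1% lower at 24 hpf. The repair gene xpc was called lower at that stage (-0.46 ± 0.13; limma adjusted p = 0.0408), but the call was lost in 10 of 12 fits that left out 1 array, and with slide as a block (0.154). At 72 hpf 0 of the 7 were called higher in limma, and 0 had a higher value with an unadjusted p below 0.05. At that stage 1 of the 7 was called lower (5.44% of all genes and probes). The list's median was 0.02 at 24 hpf and -0.16 at 72 hpf. For the difference of the treatment effects 4 of the 7 were called lower (3.74% of all genes and probes), with a list median of -0.48. Among them were ptgdsb.1 (-1.19 ± 0.22, SE; limma adjusted p = 0.0149), ddb2 (-0.63 ± 0.11; 0.0130, or 0.0562 with the replicate block) and neil1, a DNA glycosylase gene (-0.48 ± 0.12; 0.0467). The neil1 call was lost in 11 of 12 fits that left out 1 array, and with the replicate block (0.107). With slide as a block, the differences for ptgdsb.1 (-1.49), ddb2 (-0.53) and neil1 (-0.38) were not called.

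Some marker sets of other tissues also moved at 24 hpf, where 9.05% of all genes and probes were called higher and 10.1% lower. The summed relative signal of 3 liver markers was 948% to 1141% with beclomethasone, against 551% to 572% with DMSO, with 2 of 3 called higher. That of 3 erythrocyte markers was 21923% to 23532% with beclomethasone, against 12232% to 13427% with DMSO, with 2 of 3 called higher, and that of 8 photoreceptor and pineal markers 15282% to 17513% with beclomethasone, against 21272% to 22481% with DMSO, with 1 called higher and 2 lower. That of 4 exocrine pancreas markers was 121% to 135% with beclomethasone, against 73.7% to 82.9% with DMSO, with 0 called in limma and 0 at an unadjusted p below 0.05. The sums of 5 skeletal muscle markers overlapped, with 2 of 5 called higher. Those of 3 brain neuron markers overlapped as well, at 1134% to 1349% with beclomethasone and 1296% to 1351% with DMSO. Of these 3, 0 were called in limma, and 1 was lower at an unadjusted p below 0.05. At 72 hpf the liver and erythrocyte sums overlapped between treatments, and the photoreceptor and pineal sum was 33107% to 35241% with beclomethasone, against 36189% to 41042% with DMSO. A summed signal cannot be 0, so these sums do not show whether the cells were present. On the 24 hpf DMSO arrays, 2 of 4 exocrine pancreas markers and 1 of 8 photoreceptor and pineal markers were never above background. With beclomethasone at 24 hpf, this held for 1 of the 8 photoreceptor and pineal markers. The part of these cells in the clock gene results was not tested.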

How the data were processed

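Each array was scanned once in Cy3. Spot intensity values were made by the authors with Agilent Feature Extraction 10.7.1.1, per the file headers, as background-subtracted processed signals that were not normalized between arrays. The authors also deposited log2 values per probe, made with Agilent Feature Extraction and limma per the submitters' processing notes, with steps and scale not given in the sources used here. They served as an alternative, because their treatment labels are crossed against the scanner files.

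From the scanner files, log2 processed intensity minus the array's 75th percentile was averaged per probe, without control and outlier spots. A gene was represented by its brightest probe. Accessions named 25069 of 26981 probes that carry one. A model with 1 mean per group was fitted to 12 arrays with limma 3.58.1 in R 4.3.3 (8 residual degrees of freedom), and p-values were adjusted by Benjamini-Hochberg over 25166 genes and probes. The code was tested on simulated data. Fold bounds are defined in the text.

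The members, gene lists and tests were chosen with earlier results of these data known. All members are named, up to 6 called genes per list (1 such gene is not reported here), and the genes with the highest Pearson r to a member. Replicate numbers were taken from the sample titles. Deviations of same-numbered arrays correlated at 0.498 to 0.533 at 72 hpf, a sign of pairing, and at -0.09 to 0.06 at 24 hpf, which gives none. The reported fit is unpaired at both stages, and pairing enters the tests only through the replicate block among the alternatives. Alternatives were other scalings, normexp background correction (on the median spot signal, as no mean signal is in the files used), the deposited log2 table, no filter, every probe as a row, fewer arrays, slide and replicate blocks, and each array left out. The normexp correction added an offset of 50 units to every spot. The number of arrays limits the precision.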

Additional observations from a re-analysis of the deposited data

Results flagged for a closer look

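The difference between the treatment effects at 72 and 24 hpf passed the threshold for 3 of the 9 clock genes when it was tested itself, as an interaction in limma. It was 1.54 for bhlhe41, 0.48 for bhlhe40 and -1.29 for nr1d2a on the log2 scale (adjusted p = 0.00248, 0.0149 and 0.0145). For bhlhe41 the second probe was called as well, but its 24 hpf level also lay near the background, its value was 0.72 after quantile normalization (adjusted p = 0.674), and the call was lost with slide as a block (0.0675). The nr1d2a value rests on a 24 hpf DMSO level that lay near the background, and the bhlhe40 value on 1 of its 2 probes.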

How the results depend on the processing

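With 3 arrays per group, a p above the threshold does not show equal levels. The 24 hpf levels of nr1d1, bhlhe41, dbpa and dbpb lay near the background, and that of nr1d2a in DMSO as well. The normexp setting adds 50 units to every spot, so the folds of such dim spots shrink by construction. After it the 24 hpf log2 change of nr1d2a was 2.14, that of tefb 1.08 and that of nr1d1 0.39. Array weights and slide as a random block were chosen after the data were seen, as was running every alternative on the gene lists.

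Leaving out 1 array at a time gave 3 to 7 called members at 72 hpf, 3 to 5 at 24 hpf, 3 to 4 for the difference of the effects and 7 to 8 for stage in either treatment, with dbpb counted where it was called. The genes and probes called were then 1506 to 3847, 2199 to 6313, 653 to 3075, and, for stage, 15510 to 19165 in beclomethasone and 15405 to 18978 in DMSO. The highest counts of members in both treatment contrasts, and of genes and probes in all contrasts, came without 24 hpf DMSO replicate 3. The lowest count of members at 72 hpf came without 72 hpf beclomethasone replicate 1 or 3. The lowest counts of genes and probes came without beclomethasone replicate 2 of 72 hpf for the 72 hpf contrast, and of 24 hpf for the 24 hpf contrast and the difference.

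Called members numbered 2 at 72 hpf after quantile normalization, tefa and dbpb (limma adjusted p = 0.0118 and 0.0151). The dbpb call, not made in the reported fit, has a direction that the condition for testing fixed. In that setting nr1d1, nr1d2a, bhlhe41 and tefb were lost (adjusted p = 0.128, 0.0839, 0.103 and 0.210). A block for the slide leaves 1 array against 3 in each treatment contrast, and they then numbered 2 at 72 hpf, 1 at 24 hpf, 0 for the difference of the effects and 4 for stage in DMSO. For the difference they numbered 6 after normexp, dbpb among them, 1 after quantile normalization (bhlhe40) and 1 with the replicate block (bhlhe41). The replicate block also took the call of nr1d1 at 72 hpf and changed no other call of a member. Of the list genes named for a treatment effect, it took those of nfil3-6 and nfil3 at 72 hpf, and of csnk1da and xpc at 24 hpf (adjusted p = 0.0661 and 0.0976).

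All genes and probes called numbered, at 24 hpf, 4829 as reported, 9625 after normexp, 8322 with array weights, 7939 with every probe a row, 1311 with the arrays of that stage alone and 891 with slide as a block. At 72 hpf they numbered 2578 as reported, 4381 with array weights and 739 with slide as a block. For the difference they numbered 1586 as reported, 6046 after normexp, 4561 with array weights, 4113 with slide as a random block, 2800 with every probe a row, 1013 without a filter, 826 with the replicate block and 68 with slide as a block. For stage in beclomethasone they numbered 16988 as reported and 10708 with slide as a block. A fit to the compared arrays alone gives no value for the difference.

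The split of calls moved with the scaling. At 24 hpf 2278 were higher and 2551 lower as reported, against 1837 and 4150 after median scaling and 2262 and 7363 after normexp. For the difference the counts were 645 and 941 as reported, 1012 and 859 after median scaling, and 4396 and 1650 after normexp. For stage they were 8517 and 8471 in beclomethasone and 7361 and 9204 in DMSO as reported, against 6444 and 10916 and 5417 and 12071 after median scaling.

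The authors' deposited log2 table, taken as labelled, turned the sign of treatment effects. At 72 hpf it gave -1.62 for nr1d1, -2.27 for nr1d2a, -1.78 for bhlhe41, -0.67 for tefa, -1.48 for tefb, -1.15 for per2, -0.86 for cry4, -0.71 for cry1b, 0.54 for bmal1a, -1.73 for nfil3-6 and 0.36 for nfil3. At 24 hpf it gave -1.29 for nr1d1, -2.81 for nr1d2a, 0.20 for nr1d2b, 0.32 for bhlhe40, -1.62 for tefb, -1.79 for cry4, -0.98 for cry1a, -1.01 for per2, 0.37 for csnk1da, 0.33 for fbxl3b, 0.58 for tbl1x, 0.24 for ncor1, -0.85 for ptgdsb.1, -0.57 for ddb2 and 0.45 for xpc. For the difference of the effects it gave 0.54 for nr1d2a, -0.45 for bhlhe40, -1.39 for bhlhe41, 0.56 for ddb2, 1.19 for ptgdsb.1 and 0.44 for neil1, and for stage in DMSO 0.50 for bhlhe40, 0.19 for tefa and 1.05 for dbpb. With its columns joined to the arrays they match, the treatment effects named above had the reported signs. The 24 hpf effects of dbpa and dbpb did not (0.30 and 0.84, limma adjusted p = 0.463 and 0.0547), nor did the difference of the effects for dbpb (-0.05). Outside that table as labelled, 10 of the 45 member values changed sign under at least 1 alternative, of which 1 was called as reported: the difference of the effects for nr1d2a was 0.028 after normexp. Another was called under an alternative: the stage value of dbpb in DMSO, which was not above background in either group, was 1.105 in the joined table and 1.03 after quantile normalization, and ranged from -0.90 to 1.01 with 1 array left out, the highest without 24 hpf DMSO replicate 3. The other 8, called neither as reported nor under the setting that turned their sign, were the 24 hpf effects of dbpa and dbpb, the differences of the effects for nr1d1, tefb, dbpa and dbpb, and the stage values of bhlhe40 in DMSO and tefa in beclomethasone.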
